A study of Mus musculus with 12 samples.

Results

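The genes described here are 39 mouse genes of ribosome biogenesis, taken from a list of names: nucleolar proteins, RNA polymerase I subunits, snoRNP (small nucleolar ribonucleoprotein) proteins and assembly factors of both ribosomal subunits. A gene was measured when the array held a probe set naming only that gene, and where several did, the brightest of them on average was used. This gave 38 measured genes among the 18193 genes tested. Npm3 had no probe set naming only it and is not analysed here. Expression was measured on 12 Affymetrix arrays of sorted CD8 T cells from mice labelled strain C57bl/c, 6 to 8 weeks old. The PD-1+ Tim-3+ group (n = 4) and the PD-1+ Tim-3- group (n = 3) were tumour-infiltrating lymphocytes (TIL) from B16F10-GP, a mouse melanoma line injected into the right flank. Both were sorted between day 17 and day 19 after tumour injection, after digestion with collagenase and a Percoll gradient. The Tim-3+ sort was also 2B4+, which the labels call exhausted, and the Tim-3- sort was also 2B4-, which they call stem-like. The naive group (n = 5) held CD8 T cells from the spleen of naive mice, with no gate for a naive phenotype in the labels, so tissue and digestion differed between TIL and naive cells as well. No label says that arrays of a group came from separate mice, so p-values measure only the spread between these samples. The number of arrays limits the precision.

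Ribosomes are built in the nucleolus. RNA polymerase I transcribes the rRNA precursor there, snoRNPs guide its chemical modification and cleavage, and assembly factors fold it with ribosomal proteins into a small (40S) and a large (60S) subunit that are exported to the cytoplasm. T cells that leave rest to grow and divide are known to raise this pathway, and the transcription factor MYC, which binds the E-box letters CACGTG, is known to drive many of its genes.

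Promoter sequence (250 bases before to 50 after the annotated start; RefSeq, GRCm38.p6) was given for 34 of the 39 genes and not for Bop1, Fbl, Npm1, Rrp12 and Rrs1. These 34 genes had 38 windows, since some had more than 1 start, and a gene was counted when any of its windows held the letters. The letters CACGTG, which read the same on both strands, lay in a window of 8 of these 34 genes (23.53%), against 8.093% of 27025 genes with a window and 10.23% of 14452 genes tested on the arrays. The windows of these 8 genes are shown because they hold the letters of the pathway's best known regulator. Capitals mark CACGTG. It began at -121 from the start in Imp4 and -60 in Nop2, and at 3 in Pes1, 18 in Wdr43, 25 in Tsr1, 29 in Ltv1, 38 in Utp20 and 41 in Mybbp1a. Here 1 is the annotated start of the window and -1 the base before it. This start was the first listed base of the gene for 24 of the 38 windows. For Wdr43 it lay downstream of that base (chr17:71616178), and for the other genes shown it was that base. Coordinates give the forward strand and sequences run 5′ to 3′ on the gene's strand.
Imp4 (chr1:34439696-34439725, plus strand): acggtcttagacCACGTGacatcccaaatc
Nop2 (chr6:125131811-125131840, plus strand): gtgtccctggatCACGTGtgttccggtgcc
Ltv1 (chr10:13193092-13193121, minus strand): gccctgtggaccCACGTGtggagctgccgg
Utp20 (chr10:88826765-88826789, minus strand): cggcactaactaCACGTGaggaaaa
Pes1 (chr11:3963965-3963994, plus strand): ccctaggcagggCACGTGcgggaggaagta
Mybbp1a (chr11:72441355-72441376, plus strand): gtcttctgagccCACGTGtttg
Tsr1 (chr11:74898092-74898121, plus strand): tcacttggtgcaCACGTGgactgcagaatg
Wdr43 (chr17:71616220-71616249, plus strand): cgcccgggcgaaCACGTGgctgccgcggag

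The 100 bases before the start are also shown for Nhp2 and Polr1c, the genes that differed between the TIL groups. Capitals mark CCGGAAGT, the letters bound by ETS factors, and CCAAT, the box bound by NF-Y, each searched on both strands. In Nhp2 a CCAAT and its reverse complement overlap in the second run of capitals. CCGGAAGT was held by 26.47% of the 34 genes in any of their windows, against 4.307% of all genes with a window and 6.622% of genes tested on the arrays, and CCAAT by 32.35%, against 41.06% and 42%. A match describes these letters and shows no binding.
Nhp2 (chr11:51619673-51619772, plus strand): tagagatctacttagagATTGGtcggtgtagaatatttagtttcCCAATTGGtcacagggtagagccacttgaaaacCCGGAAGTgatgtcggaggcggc
Polr1c (chr17:46248046-46248145, minus strand): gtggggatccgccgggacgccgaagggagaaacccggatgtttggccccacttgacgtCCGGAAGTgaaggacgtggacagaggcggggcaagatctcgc

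The sort genes followed the labels. Havcr2, which encodes Tim-3, had mean log2 intensities of 11.66 in Tim-3+, 7.08 in Tim-3- and 4.63 in naive cells, Cd244a (2B4) had 11.49, 4.89 and 4.19, and Pdcd1 (PD-1) had 11.77, 11.37 and 5.14. Cd8a lay at 12.85, 12.63 and 12.82. Cd8b1 lay at 11.76, 11.70 and 12.46 and was called lower in both TIL groups against naive, the only one of 8 genes of this marker list. Median intensities of the arrays ranged between 58.8 and 63.0. Arrays of every group fell into 2 sets that no label names, drawn by the sign of the first principal component of deviations from group means over genes outside all lists used here (35.7% of that variance). Set A held Tim-3+ replicates 1 and 2, Tim-3- replicate 1 and naive replicates 1 and 2, and set B the other 7 arrays. Counts of calls are also given with set as a block and for each set alone, and so are values of some single genes. Because the sets were drawn from the spread of these same arrays, a block on set tends to lower that spread by construction. A call gained only with this block is therefore not taken as support for a change. Within set A the single Tim-3- array is assumed to vary like the other groups. Markers of B cells summed to intensities between 187 and 206 in Tim-3+, 218 and 233 in Tim-3- and 573 and 761 in naive arrays over 5 of 6 measured genes, with Cd79b at log2 5.59, 6.37 and 8.89. The 8 melanoma markers summed to between 307 and 1231, 394 and 666, and 405 and 522, and 5 of them were called higher and 1 lower in Tim-3+ against naive, 2 higher and 1 lower in Tim-3- against naive, and none between the TIL groups. Among these, Tyrp1 lay at log2 6.77, 6.15 and 3.11, and Pmel, the one called lower, at 6.81, 7.17 and 8.05. Neutrophil markers (4 of 5 measured) summed to between 264 and 502, 104 and 128, and 114 and 194, with Ltf at 7.92, 4.66 and 4.75. The other 3 neutrophil markers were lower in Tim-3+ than in naive cells, none of them called. Macrophage markers (9 of 10 measured) summed to between 378 and 489, 458 and 551, and 291 and 375, with Cd68, the brightest, at log2 7.46, 8.28 and 6.83. Between the TIL groups 7 of these 9 were higher and 2 lower in Tim-3+. Cd14 (5.21, 4.31 and 4.12) was called higher and Cd68 lower. Against naive, Cd68 was called higher in both TIL groups and Cd14 in Tim-3+. Dendritic cell markers (6 of 6) summed to between 301 and 347, 310 and 419, and 310 and 394. Against naive, Itgax was called higher in both TIL groups (5.28, 6.33 and 4.37) and Siglech lower in both (6.18, 6.20 and 6.68). Zbtb46, the brightest of these markers, was called lower in Tim-3+ against naive (7.20, 7.17 and 7.49). Cd8b1, Tyrp1, Cd14 and Itgax were picked after their values were seen. Linear intensities were never 0, while 4, 4 and 3 of the 5 B cell markers, 3, 5 and 7 of the 8 melanoma markers, 3, 4 and 3 of the 4 neutrophil markers, 7, 7 and 7 of the 9 macrophage markers and 4, 3 and 4 of the 6 dendritic cell markers had group means below log2 5.71, percentile 40 of all genes. What these other cells contribute to the values of the 38 genes was not tested. In RNA from sorted pools, fewer cells that use a gene and less of its RNA per cell cannot be told apart.

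Changes among the ribosome biogenesis genes were few between the TIL groups and, against naive cells, mostly toward lower levels. Each comparison was a limma contrast of 1 fit over all 12 arrays, and a gene was called when its Benjamini-Hochberg adjusted p over the 18193 genes was below 0.05. Between Tim-3+ and Tim-3- TIL, 2 of 38 genes were called (5.26%), Nhp2 higher and Polr1c lower in Tim-3+, against 13.5% of all genes (7.77% higher, 5.77% lower). Against naive cells, 13 of 38 were called in Tim-3- TIL (34.2%), 1 higher and 12 lower, where 34.4% of all genes were called (16.1% higher, 18.3% lower). In Tim-3+ TIL 14 of 38 were called against naive (36.8%), 4 higher and 10 lower, where 41.5% of all genes were called (20.1% higher, 21.4% lower). Quantile normalization moved this split to 2 higher and 12 lower. The 2 comparisons with naive cells share the naive arrays. All 38 genes had group means above the dim level of 5.71. Among the 8211 genes whose mean lay within the range of the 38 (log2 6.94 to 12.94), 20.2% were called between the TIL groups, 49.6% in Tim-3- against naive (25.3% lower) and 59.8% in Tim-3+ against naive (28.5% lower).

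**Figure D1:**
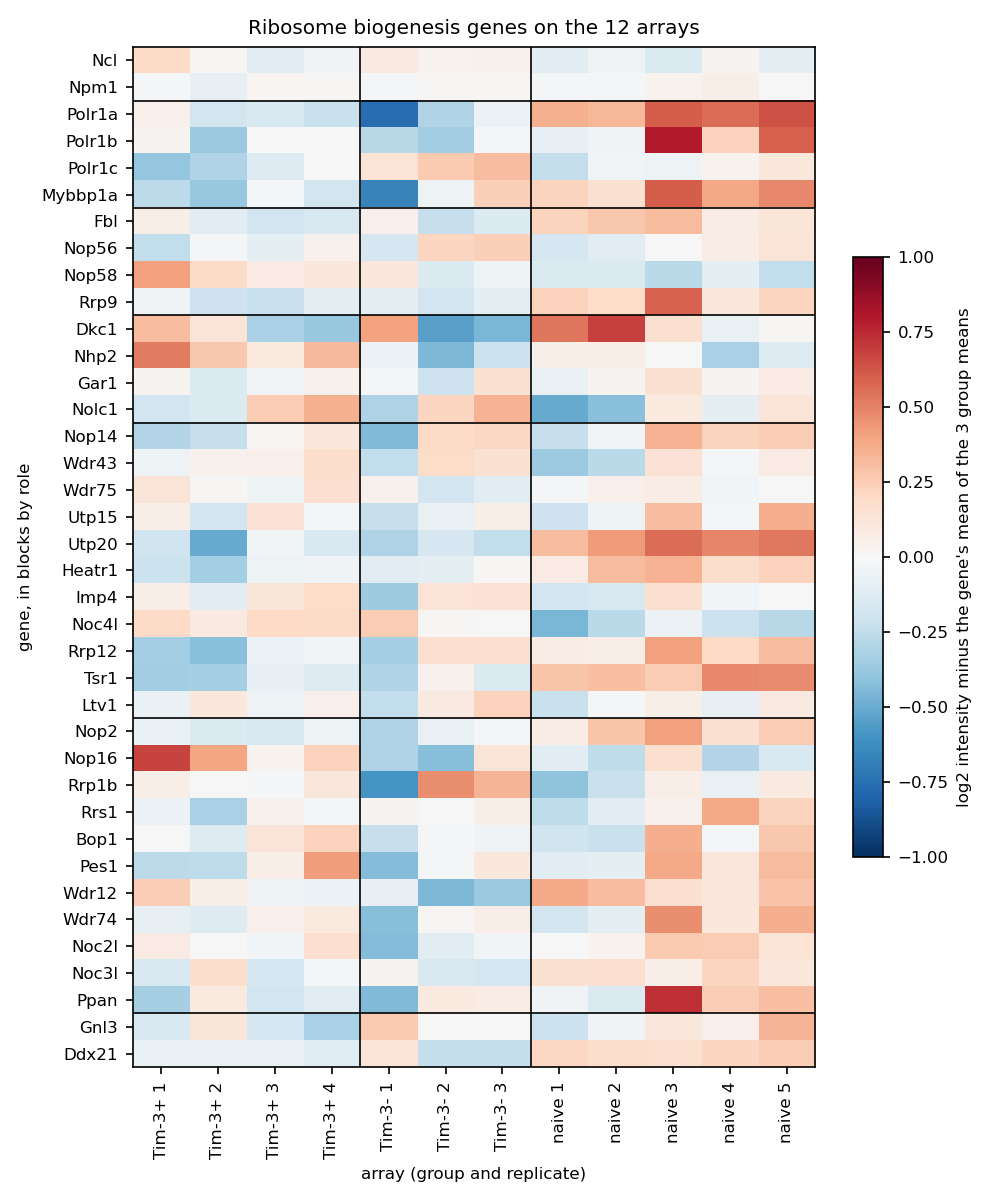
Log2 intensity of each of the 38 genes (rows, in blocks by role) on each of the 12 arrays (columns: Tim-3+, Tim-3-, naive), minus the gene's mean of the 3 group means, colour scale -1 to 1. Polr1a, Utp20 and Tsr1 are higher on every naive array than on any TIL array, Npm1 hardly differs across arrays, and Dkc1 is high on the arrays of set A in each group.

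The sizes were small in every comparison. By the probe set used for each gene, none of the 38 changed 2-fold or more between any pair of groups (second probe sets of Wdr12 and Nolc1 did, as given further on), whereas 4.39% of all genes did so between the TIL groups, 12.0% in Tim-3- against naive and 14.3% in Tim-3+ against naive. The 95% interval of the change lay within 2-fold for 38 of 38 genes between the TIL groups, 37 of 38 in Tim-3- against naive (Polr1a reached beyond it) and 38 of 38 in Tim-3+ against naive. The median log2 change of the 38 genes was 0.02 between the TIL groups, -0.16 in Tim-3- against naive and -0.15 in Tim-3+ against naive, and over all genes it was 0.01, -0.06 and -0.07. For 4 of the 38 genes the Tim-3+ and Tim-3- arrays had no overlap, where 22.7% of all genes showed this. They did not overlap for 14 genes between Tim-3- and naive cells (35.1% of all genes) and for 13 between Tim-3+ and naive cells (37.3% of all genes).

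The mean of the 38 genes on each array, each gene centred on its 3 group means, was -0.02, -0.09, -0.03 and 0.02 on the Tim-3+ arrays, -0.18, -0.06 and 0.02 on the Tim-3- arrays, and -0.03, 0.03, 0.23, 0.10 and 0.18 on the naive arrays. The groups overlapped, and Tim-3- replicate 1 was the lowest array. Without Tim-3- replicate 1, 9 of 38 genes were called in Tim-3- against naive, 1 higher and 8 lower, and 3 between the TIL groups. Of all 18193 genes, 6035 and 2447 were called in this fit, against 6252 and 2463 with every array. The count in Tim-3- against naive fell to 7 without Tim-3- replicate 2 (5361 of all genes) and to 8 without naive replicate 3 (5890 of all genes). Between the TIL groups it was 0 when Tim-3- replicate 2 was left out (1666 of all genes). It was 1 when either Tim-3+ replicate 1 or Tim-3+ replicate 2 was (1981 and 2076 of all genes). In a fit with set as a block, 4 of 38 genes were called between the TIL groups (18.4% of all genes), 18 in Tim-3- against naive (40.2% of all genes) and 17 in Tim-3+ against naive (47.9% of all genes). The genes added were Nop16 and Wdr12 between the TIL groups, Polr1c, Dkc1, Rrp12, Pes1 and Wdr74 in Tim-3- against naive, and Dkc1, Nolc1 and Wdr12 in Tim-3+ against naive. The sets came from these arrays' own spread, so more calls with this block follow in part from how it was drawn. Within set A the counts were 1, 5 and 8, with 8.74%, 24% and 34.1% of all genes called, and within set B 0, 10 and 15, with 12%, 35.4% and 39.8%.

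**Figure D2:**
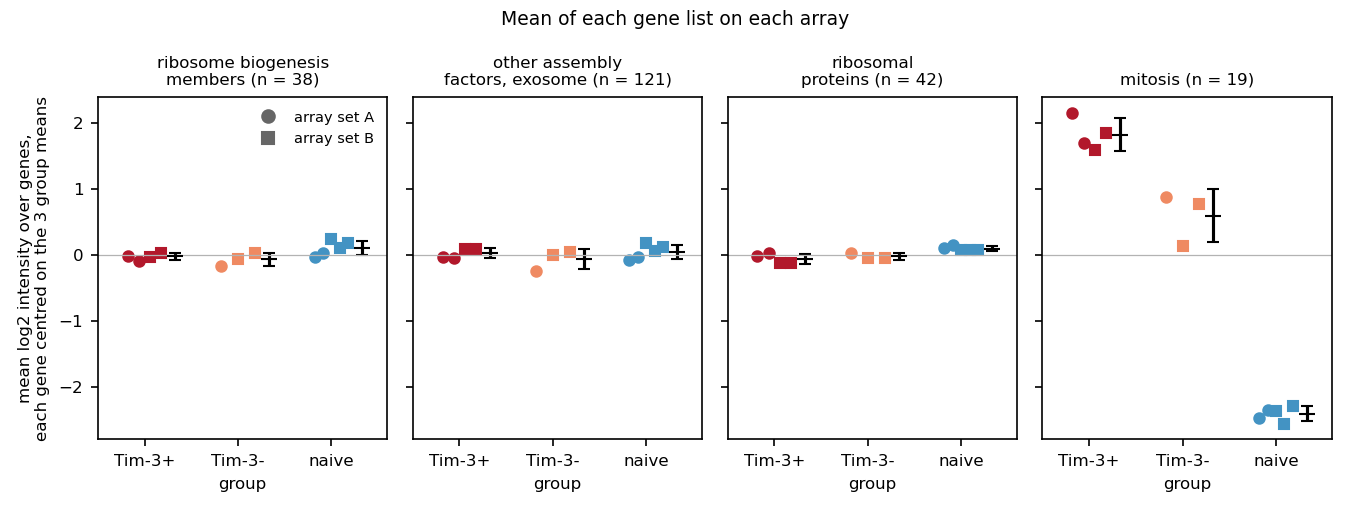
Mean log2 intensity over the genes of a list on each array, each gene centred on its 3 group means, for the 38 genes, 121 other assembly factors and exosome subunits, 42 ribosomal proteins and 19 mitosis genes; circles are arrays of set A, squares of set B, and bars give the group mean and SD. On the shared axis the first 3 lists stay near 0 on every array (the 38 genes between -0.18 and 0.23), while the mitosis genes average 1.82 on Tim-3+, 0.59 on Tim-3- and -2.41 on naive arrays.

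The scaffold proteins of the nucleolus showed no called difference by the probe sets used. Ncl (nucleolin), which binds nascent rRNA, had log2 intensities of 12.71, 12.52, 12.41 and 12.48 on the Tim-3+ arrays, 12.60, 12.55 and 12.55 on the Tim-3- arrays, and 12.41, 12.47, 12.37, 12.54 and 12.43 on the naive arrays. Npm1 (nucleophosmin), a histone chaperone that keeps the outer layer of the nucleolus together, had 12.93, 12.86, 12.96 and 12.95 on the Tim-3+ arrays, 12.92, 12.95 and 12.96 on the Tim-3- arrays, and 12.92, 12.93, 12.97, 13.00 and 12.94 on the naive arrays. Neither gene passed the test in any comparison. The Tim-3- arrays of Ncl lay just above all naive arrays, and its most variable probe set passed in Tim-3- against naive (0.48, adjusted p = 0.0224). The 95% interval for Npm1 ran between -0.20 and 0.16 for Tim-3+ against Tim-3-, between -0.18 and 0.16 for Tim-3- against naive, and between -0.19 and 0.13 for Tim-3+ against naive.

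Among 4 genes of rRNA transcription, Polr1a and Mybbp1a were called lower in Tim-3+ against naive, and these and Polr1b in Tim-3- against naive, where the calls of Polr1b and Mybbp1a were lost without single arrays. Polr1a encodes the largest subunit of RNA polymerase I. It had log2 intensities of 8.83, 8.60, 8.63 and 8.56 on the Tim-3+ arrays, 8.02, 8.48 and 8.72 on the Tim-3- arrays, and 9.13, 9.11, 9.38, 9.34 and 9.42 on the naive arrays. Every naive array lay above every TIL array. Polr1a fell by 0.87 ± 0.14 (SE) in Tim-3- against naive, 1.83-fold lower (adjusted p = 0.000283), and by 0.62 ± 0.13 in Tim-3+ against naive, 1.54-fold lower (adjusted p = 0.00153). Both calls held in all 12 fits that each left out 1 array. Within set A the changes were -1.10 in Tim-3- (adjusted p = 0.00546) and -0.41 in Tim-3+ (adjusted p = 0.0554), and within set B -0.78 and -0.79 (adjusted p = 0.000706 and 0.000531). Between Tim-3+ and Tim-3- TIL its change of 0.25 ± 0.15 did not pass (adjusted p = 0.367).

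Mybbp1a encodes a nucleolar protein that binds RNA polymerase I and takes part in rRNA processing. It had log2 intensities of 10.35, 10.23, 10.60 and 10.43 on the Tim-3+ arrays, 9.94, 10.56 and 10.85 on the Tim-3- arrays, and 10.83, 10.77, 11.22, 11.00 and 11.10 on the naive arrays. All Tim-3+ arrays lay below all naive arrays, and Tim-3- replicate 3 overlapped them. It fell by 0.58 ± 0.16 in Tim-3+ against naive (1.49-fold lower, adjusted p = 0.0101), a call kept in every alternative and without any 1 array. The fall of 0.53 ± 0.18 in Tim-3- (adjusted p = 0.0312) was lost without Tim-3- replicate 1, where the change was -0.28 (adjusted p = 0.176), and without naive replicate 3, 4 or 5 (adjusted p = 0.0685, 0.0521 and 0.0611).

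Polr1b, the second largest subunit, had log2 intensities of 6.92, 6.52, 6.90 and 6.90 on the Tim-3+ arrays, 6.61, 6.54 and 6.87 on the Tim-3- arrays, and 6.81, 6.86, 7.69, 7.12 and 7.49 on the naive arrays. Naive arrays of set A lay among the TIL arrays and those of set B above them. The fall of 0.52 ± 0.19 in Tim-3- against naive barely passed (adjusted p = 0.0490) and was lost in 9 of 12 fits without 1 array, all but those without Tim-3+ replicate 2 and naive replicates 1 and 2, with adjusted p up to 0.159. It was -0.22 within set A (adjusted p = 0.465) and -0.72 within set B (adjusted p = 0.0122). In Tim-3+ against naive the change of -0.39 ± 0.17 did not pass (adjusted p = 0.0950).

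Polr1c, a subunit that RNA polymerases I and III share, was the only one of the 38 genes called lower in Tim-3+ than in Tim-3- TIL. Its log2 intensities were 10.91, 11.01, 11.17 and 11.31 on the Tim-3+ arrays, 11.44, 11.56 and 11.61 on the Tim-3- arrays, and 11.06, 11.28, 11.25, 11.34 and 11.42 on the naive arrays. The Tim-3+ and Tim-3- arrays did not overlap, and the naive arrays overlapped the Tim-3+ arrays only. Polr1c fell by 0.44 ± 0.12 in Tim-3+ against Tim-3- (1.36-fold lower, adjusted p = 0.0236). Leaving out Tim-3+ replicate 1 or 2 ended this call (adjusted p = 0.0705 and 0.0636), as did leaving out Tim-3- replicate 2 or 3 (adjusted p = 0.0829 and 0.0913). The change was -0.48 within set A (adjusted p = 0.128) and -0.35 within set B (adjusted p = 0.0874). Against naive cells it changed by -0.17 ± 0.10 in Tim-3+ (adjusted p = 0.215) and 0.27 ± 0.11 in Tim-3- TIL (adjusted p = 0.0855), neither past the threshold. With set as a block the Tim-3- change was 0.26 and passed (adjusted p = 0.0288).

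**Figure D3:**
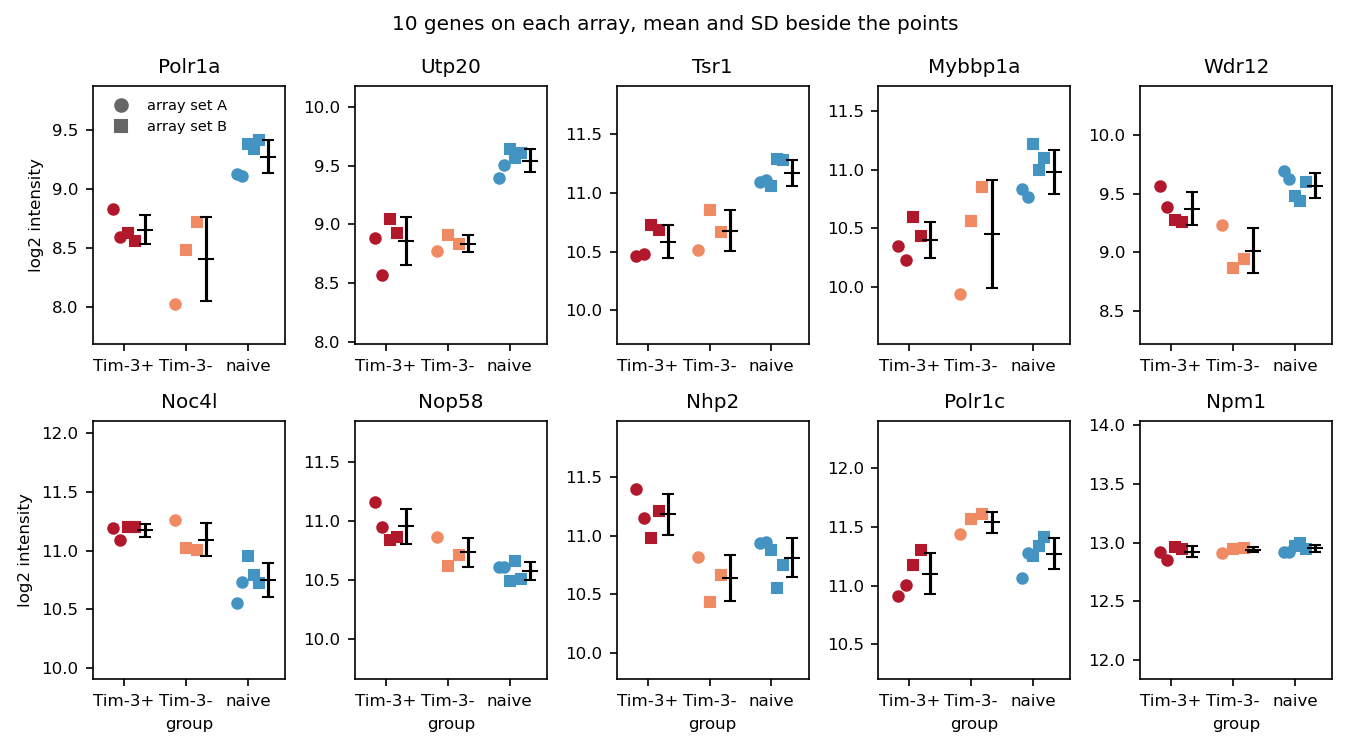
Log2 intensity of 10 genes on each array by group (Tim-3+, Tim-3-, naive), with the group mean and SD beside the points; circles are arrays of set A and squares of set B, and every panel spans the same log2 range. Polr1a, Utp20 and Tsr1 lie higher on all naive arrays, Noc4l lower on all naive arrays, Tim-3+ arrays lie above the Tim-3- arrays for Nhp2 and below them for Polr1c, and Npm1 is nearly level.

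Proteins of the box C/D snoRNPs, which methylate rRNA, moved in both directions. Fbl (fibrillarin), the methyltransferase, had log2 intensities of 11.82, 11.65, 11.57 and 11.61 on the Tim-3+ arrays, 11.81, 11.53 and 11.63 on the Tim-3- arrays, and 11.99, 12.03, 12.08, 11.83 and 11.89 on the naive arrays. All TIL arrays lay below all naive arrays. Fbl fell by 0.30 ± 0.09 in Tim-3+ (adjusted p = 0.0198) and by 0.31 ± 0.10 in Tim-3- (adjusted p = 0.0333) against naive. For Tim-3+ this no longer passed without Tim-3+ replicate 3 or 4 (adjusted p up to 0.0599), and for Tim-3- without Tim-3- replicate 2 or 3 or naive replicate 1, 2 or 3 (adjusted p up to 0.153). Within set A the changes were -0.28 in Tim-3+ and -0.20 in Tim-3-. Within set B they were -0.34 and -0.35 (adjusted p = 0.0394 and 0.0379).

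Nop58, a core protein of the same particles, moved the other way. It had log2 intensities of 11.16, 10.95, 10.84 and 10.87 on the Tim-3+ arrays, 10.87, 10.62 and 10.71 on the Tim-3- arrays, and 10.61, 10.61, 10.49, 10.66 and 10.51 on the naive arrays. All Tim-3+ arrays lay above all naive arrays, with Tim-3- arrays between and overlapping both. Nop58 rose by 0.38 ± 0.09 in Tim-3+ against naive (1.30-fold, adjusted p = 0.00463), and this call was kept without any 1 array and in every alternative. The change of 0.16 ± 0.10 in Tim-3- did not pass (adjusted p = 0.269). Nop56, its partner in the particle, passed in no comparison, with changes between -0.18 (Tim-3+ against Tim-3-) and 0.11 (Tim-3- against naive).

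Rrp9, a protein of the U3 snoRNP that guides the first cleavages of the precursor, had log2 intensities of 7.32, 7.15, 7.14 and 7.26 on the Tim-3+ arrays, 7.27, 7.17 and 7.26 on the Tim-3- arrays, and 7.59, 7.54, 7.95, 7.47 and 7.57 on the naive arrays. All TIL arrays lay below all naive arrays. It fell by 0.41 ± 0.10 in Tim-3+ (1.32-fold lower, adjusted p = 0.00559) and by 0.39 ± 0.11 in Tim-3- (1.31-fold lower, adjusted p = 0.0152) against naive. Without Tim-3- replicate 2 the fall in Tim-3- did not pass (adjusted p = 0.0629). The Tim-3- change was -0.29 within set A, and -0.45 within set B, where it did not pass (adjusted p = 0.0505).

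Among the box H/ACA proteins, whose particles turn uridine into pseudouridine, Nhp2 separated the TIL groups. Nhp2, a core protein, had log2 intensities of 11.40, 11.15, 10.98 and 11.21 on the Tim-3+ arrays, 10.82, 10.43 and 10.66 on the Tim-3- arrays, and 10.94, 10.95, 10.88, 10.56 and 10.75 on the naive arrays. All Tim-3+ arrays lay above all others. Nhp2 rose by 0.54 ± 0.13 in Tim-3+ against Tim-3- (1.46-fold, adjusted p = 0.0148), which no longer passed without Tim-3- replicate 2, where the change was 0.44 (adjusted p = 0.0885). It was 0.45 within set A (adjusted p = 0.150) and 0.54 within set B (adjusted p = 0.0542). Against naive it rose by 0.37 ± 0.12 in Tim-3+ (adjusted p = 0.0219), lost without Tim-3+ replicate 1 or 4 or naive replicate 4 (adjusted p = 0.0755, 0.0508 and 0.0537) and when the arrays were centred on their medians or quantile normalized. The change in Tim-3- was -0.17 ± 0.13 (adjusted p = 0.336).

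Dkc1 (dyskerin) is the pseudouridine synthase of these particles and a part of telomerase. By the probe set used, it differed more between the array sets than between the groups. It had log2 intensities of 11.14, 10.95, 10.50 and 10.44 on the Tim-3+ arrays, 11.23, 10.28 and 10.37 on the Tim-3- arrays, and 11.36, 11.51, 10.98, 10.75 and 10.84 on the naive arrays. The first 2 Tim-3+, the first Tim-3- and the first 2 naive arrays, which are those of set A, were the highest of their groups. By this probe set Dkc1 passed in no comparison, with -0.33 ± 0.22 in Tim-3+ (adjusted p = 0.264) and -0.46 ± 0.24 in Tim-3- against naive (adjusted p = 0.164). Once set entered as a block, the changes were -0.39 (adjusted p = 0.00260) and -0.42 (adjusted p = 0.00375). On both other probe sets of Dkc1 the naive arrays of set A were the lowest of their group. These probe sets changed by -0.51 and -0.24 in Tim-3+ and by -0.70 and -0.52 in Tim-3- against naive. The mean of all its probe sets passed in Tim-3+ (-0.36, adjusted p = 0.00379) and in Tim-3- (-0.56, adjusted p = 0.000311). Gar1, another core protein, and Nolc1, a chaperone that shuttles snoRNPs, passed in no comparison. Gar1 changed by -0.07 in each TIL group against naive. By the probe set used, Nolc1 changed by 0.23 ± 0.18 in Tim-3+ and 0.24 ± 0.19 in Tim-3- against naive. With set as a block the Tim-3+ change was 0.28 (adjusted p = 0.00835), and with the replicate block the changes were 0.30 and 0.38 (adjusted p = 0.0496 and 0.0334). The mean of its probe sets went the other way (-0.31 and -0.44, adjusted p = 0.0230 and 0.00587). So did its most variable probe set (-1.12 and -1.38, adjusted p = 1.78e-05 and 7.95e-06).

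In the small subunit processome, the particle that forms on the 5′ part of the precursor, 1 of 11 genes was higher and 3 were lower in Tim-3- against naive, and 1 was higher and 4 lower in Tim-3+ against naive. These calls are 36.4% of the 11 genes in Tim-3- and 45.5% in Tim-3+, where 34.4% and 41.5% of all genes were called. None of the 11 was called between the TIL groups (13.5% of all genes), with 0 at an unadjusted p below 0.05 by limma. Utp20, a very long scaffold protein of the processome, had log2 intensities of 8.88, 8.57, 9.05 and 8.93 on the Tim-3+ arrays, 8.77, 8.91 and 8.83 on the Tim-3- arrays, and 9.39, 9.50, 9.64, 9.57 and 9.61 on the naive arrays. The TIL arrays all lay below the naive arrays, with no overlap. Utp20 fell by 0.68 ± 0.10 in Tim-3+ (1.61-fold lower, adjusted p = 8.74e-05) and by 0.71 ± 0.11 in Tim-3- against naive (1.63-fold lower, adjusted p = 0.000200). Both calls were kept in every alternative and without any 1 array. The change between the TIL groups was 0.02 ± 0.12, with an interval between -0.23 and 0.27.

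Tsr1, which is needed late, when the 40S precursor matures in the cytoplasm, had log2 intensities of 10.46, 10.48, 10.73 and 10.68 on the Tim-3+ arrays, 10.51, 10.86 and 10.67 on the Tim-3- arrays, and 11.09, 11.11, 11.06, 11.29 and 11.28 on the naive arrays. Again no TIL array reached a naive array. It fell by 0.58 ± 0.10 in Tim-3+ (1.50-fold lower, adjusted p = 0.000324) and by 0.49 ± 0.11 in Tim-3- against naive (1.40-fold lower, adjusted p = 0.00322), and both calls were kept throughout. Ltv1, another late 40S factor, changed by 0.04 in Tim-3+ and 0.06 in Tim-3- against naive, neither past the threshold.

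Heatr1 and Rrp12 are large repeat proteins of the same pathway. Heatr1 had log2 intensities of 8.87, 8.74, 9.03 and 9.05 on the Tim-3+ arrays, 8.98, 8.99 and 9.09 on the Tim-3- arrays, and 9.17, 9.40, 9.43, 9.26 and 9.31 on the naive arrays. It fell by 0.39 ± 0.09 in Tim-3+ (adjusted p = 0.00376) and by 0.29 ± 0.10 in Tim-3- (adjusted p = 0.0393) against naive. No TIL array of Heatr1 reached a naive array. The fall in Tim-3- did not pass when any 1 Tim-3- array was left out or naive replicate 2, 3 or 5 (adjusted p up to 0.114). With the mean of probe sets it did not pass either (-0.23, adjusted p = 0.132). Within set B the change was -0.29 in each TIL group and passed in neither (adjusted p = 0.0505 in Tim-3+ and 0.0571 in Tim-3-). Rrp12, which also serves export of both subunits in yeast, had log2 intensities of 7.53, 7.45, 7.82 and 7.85 on the Tim-3+ arrays, 7.54, 8.04 and 8.04 on the Tim-3- arrays, and 7.95, 7.94, 8.28, 8.08 and 8.18 on the naive arrays. All Tim-3+ arrays lay below all naive arrays, and Tim-3- replicates 2 and 3 lay among them. It fell by 0.42 ± 0.13 in Tim-3+ against naive (adjusted p = 0.0188), lost without Tim-3+ replicate 1 or 2 (adjusted p = 0.0555 and 0.0666). The change of -0.21 ± 0.14 in Tim-3- did not pass, and with set as a block it did (-0.23, adjusted p = 0.0403).

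Noc4l, the partner of Nop14 in yeast, was the one gene of the small subunit group called higher than in naive cells. Its log2 intensities were 11.19, 11.09, 11.21 and 11.20 on the Tim-3+ arrays, 11.26, 11.02 and 11.00 on the Tim-3- arrays, and 10.55, 10.74, 10.95, 10.79 and 10.73 on the naive arrays. Both TIL groups lay above all naive arrays. Noc4l rose by 0.42 ± 0.10 in Tim-3+ against naive (1.34-fold, adjusted p = 0.00263), a call kept in every alternative and without any 1 array. It rose by 0.34 ± 0.11 in Tim-3- (1.27-fold, adjusted p = 0.0206), lost without Tim-3- replicate 1 (adjusted p = 0.0975), with median centring or the most variable probe set, and within set B, where the change was 0.19. Nop14 itself changed by -0.21 in Tim-3+ and -0.12 in Tim-3- against naive, not past the threshold. The processome proteins Wdr43, Wdr75, Utp15 and Imp4 also passed in no comparison, with changes between -0.16 (Utp15, Tim-3- against naive) and 0.15 (Wdr75, Tim-3+ against Tim-3-).

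Assembly factors of the large subunit gave 3 of 11 genes lower in Tim-3- against naive, and 1 higher and 1 lower in Tim-3+ against naive. These calls are 27.3% and 18.2% of the 11 genes, where 34.4% and 41.5% of all genes were called. None was called between the TIL groups (13.5% of all genes), where 2 had an unadjusted p below 0.05 by limma. Nop2, which methylates large subunit rRNA, had log2 intensities of 8.07, 8.00, 7.98 and 8.09 on the Tim-3+ arrays, 7.83, 8.06 and 8.13 on the Tim-3- arrays, and 8.21, 8.41, 8.54, 8.29 and 8.39 on the naive arrays. No TIL array reached a naive array. It fell by 0.34 ± 0.09 in Tim-3+ (adjusted p = 0.0104) and by 0.36 ± 0.10 in Tim-3- against naive (adjusted p = 0.0136, and 0.0713 without Tim-3- replicate 1). Within set A the changes were -0.28 in Tim-3+ and -0.49 in Tim-3-. The Tim-3- change within set B was -0.31 and did not pass (adjusted p = 0.0612).

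Pes1, Bop1 and Wdr12 form the PeBoW complex, which is needed for processing of large subunit rRNA. Wdr12 had log2 intensities of 9.56, 9.38, 9.27 and 9.26 on the Tim-3+ arrays, 9.23, 8.86 and 8.94 on the Tim-3- arrays, and 9.69, 9.62, 9.48, 9.43 and 9.60 on the naive arrays. The Tim-3- arrays lay below all others. Wdr12 fell by 0.55 ± 0.11 in Tim-3- against naive (1.47-fold lower, adjusted p = 0.00161), a call kept without any 1 array and lost within set A (-0.42, adjusted p = 0.0941). The differences of 0.36 ± 0.12 between Tim-3+ and Tim-3- (adjusted p = 0.0657) and of -0.19 ± 0.10 between Tim-3+ and naive (adjusted p = 0.158) did not pass. The first passed without Tim-3- replicate 1, with set or replicate as a block, array weights, the dim filter and an offset of 16 before the log. It turned below 0 with the mean of probe sets and with the most variable probe set. The second passed with set as a block (-0.22, adjusted p = 0.0317). It also passed with the mean of probe sets (-0.66, adjusted p = 2.37e-06) and the most variable probe set (-1.68, adjusted p = 2.48e-07). Pes1 and Bop1 passed in no comparison, with changes between -0.24 (Pes1, Tim-3- against naive) and 0.15 (Bop1, Tim-3+ against Tim-3-). With set as a block Pes1 passed in Tim-3- against naive (-0.27, adjusted p = 0.0449).

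Nop16, a small protein of early 60S particles, had log2 intensities of 8.20, 7.92, 7.56 and 7.75 on the Tim-3+ arrays, 7.21, 7.10 and 7.65 on the Tim-3- arrays, and 7.42, 7.27, 7.68, 7.23 and 7.37 on the naive arrays. Tim-3+ arrays overlapped both other groups. It rose by 0.47 ± 0.15 in Tim-3+ against naive (1.38-fold, adjusted p = 0.0215), lost without Tim-3+ replicate 1 or 2 or naive replicate 4 (adjusted p = 0.0777, 0.0529 and 0.0509). The difference of 0.54 ± 0.17 between the TIL groups fell just short (adjusted p = 0.0516) and passed without Tim-3+ replicate 3, Tim-3- replicate 3 or naive replicate 3, with adjusted p between 0.0208 and 0.218 over the fits without 1 array. With set as a block it also passed (adjusted p = 0.0496), and it was 0.85 within set A (adjusted p = 0.0421) and 0.28 within set B (adjusted p = 0.460). The rise against naive was lost within set B (0.23, adjusted p = 0.395) and with quantile normalization (adjusted p = 0.0637). Noc2l, which binds Noc1 in yeast and histones in mammals, had log2 intensities of 10.97, 10.88, 10.86 and 11.05 on the Tim-3+ arrays, 10.46, 10.78 and 10.86 on the Tim-3- arrays, and 10.89, 10.92, 11.15, 11.14 and 11.02 on the naive arrays. It fell by 0.33 ± 0.11 in Tim-3- against naive (adjusted p = 0.0383), lost without Tim-3- replicate 1 or 2 or naive replicate 3, 4 or 5 (adjusted p up to 0.189). This change was -0.45 within set A, and -0.28 within set B, where it did not pass (adjusted p = 0.0742). Rrp1b, Rrs1, Wdr74, Noc3l and Ppan passed in no comparison, and Wdr74 did in Tim-3- against naive once set was a block (-0.27, adjusted p = 0.0465). Of these, Rrp1b on Tim-3- replicate 1 stood at 9.46, against 10.51 and 10.38 on the other Tim-3- arrays. Without that array Rrp1b rose by 0.51 in Tim-3- against naive (adjusted p = 0.0105), and within set B by 0.37 (adjusted p = 0.0269). Its most variable probe set passed in Tim-3- and Tim-3+ against naive (0.65 and 0.53, adjusted p = 0.000398 and 0.000842), while another changed by -0.29 and -0.21.

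Ddx21, an RNA helicase that binds rRNA genes and snoRNAs, had log2 intensities of 11.07, 11.07, 11.06 and 11.02 on the Tim-3+ arrays, 11.27, 10.90 and 10.90 on the Tim-3- arrays, and 11.34, 11.31, 11.30, 11.35 and 11.38 on the naive arrays. All TIL arrays lay below all naive arrays. It fell by 0.28 ± 0.09 in Tim-3+ (adjusted p = 0.0210, and 0.0552 without Tim-3+ replicate 4) and by 0.31 ± 0.10 in Tim-3- (adjusted p = 0.0234, and 0.119 and 0.123 without Tim-3- replicates 2 and 3) against naive. The Tim-3- change was -0.06 within set A and -0.44 within set B. A second probe set of Ddx21 changed by only -0.04 in Tim-3+ and 0.02 in Tim-3- against naive. With the mean of probe sets neither call was kept (-0.16, adjusted p = 0.0647, and -0.15, adjusted p = 0.137). Gnl3 (nucleostemin), a nucleolar GTPase known from stem cells, passed in no comparison, with -0.22 between the TIL groups.

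**Figure D4:**
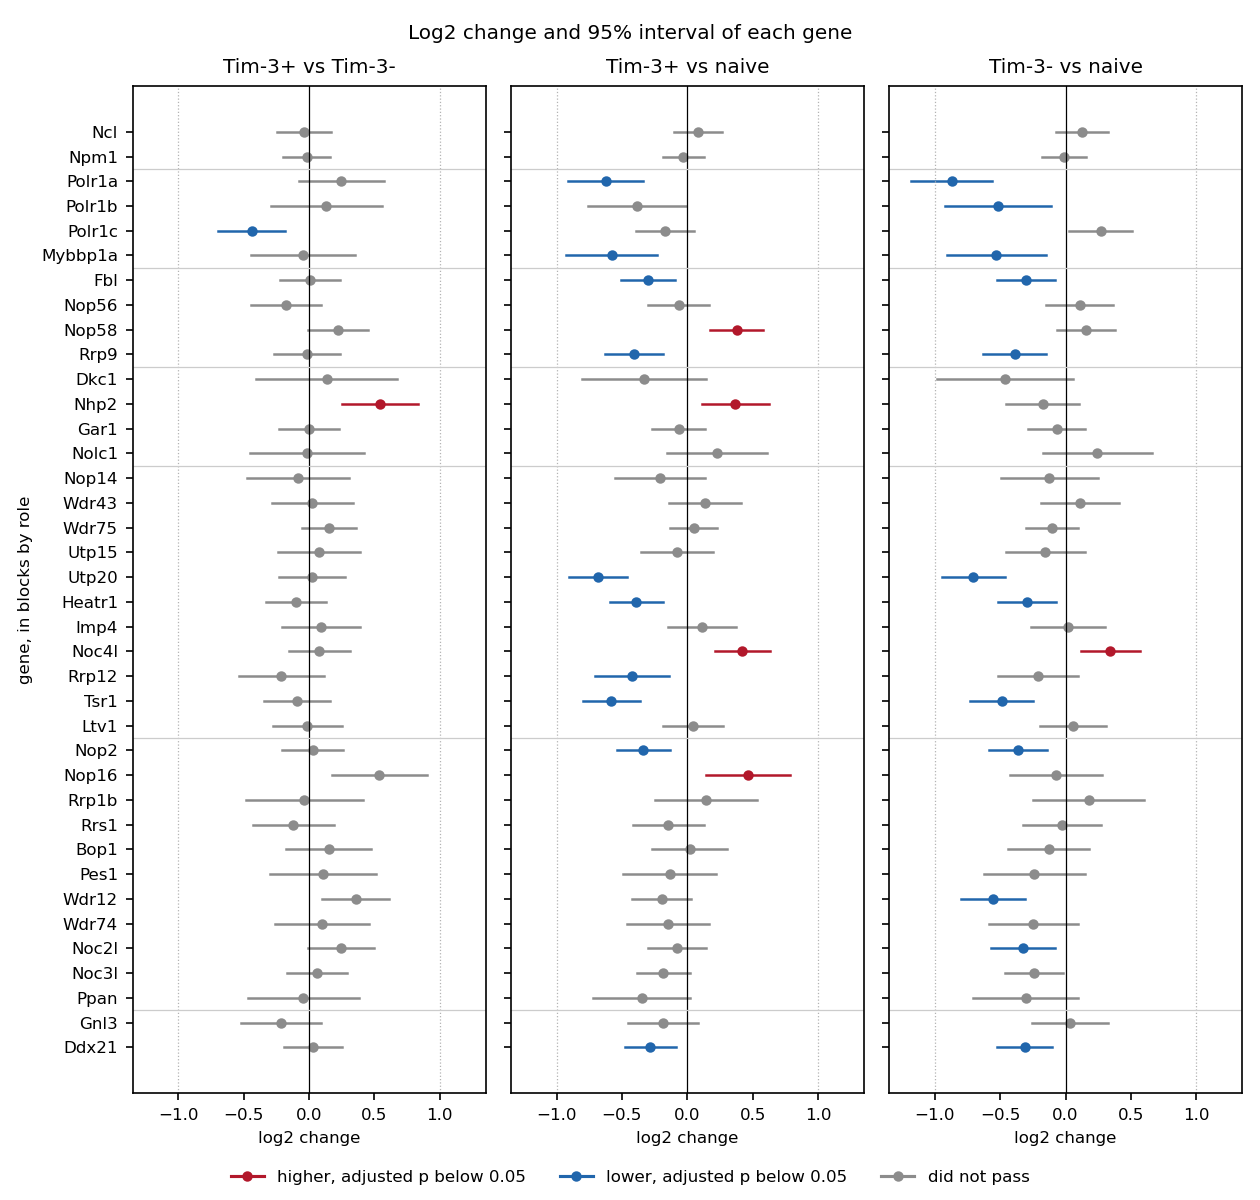
Log2 change of each of the 38 genes with its 95% interval in Tim-3+ against Tim-3-, Tim-3+ against naive and Tim-3- against naive; red and blue mark genes called higher and lower at an adjusted p below 0.05, and dotted lines mark 2-fold. No point reaches a dotted line, and the interval of Polr1a in Tim-3- against naive is the one that crosses it.

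Other probe sets gave a partly different picture. Of the 38 genes, 26 had more than 1 probe set, and 35 other probe sets above the dim level belonged to 24 genes. Their difference had the same sign as that of the probe set used for 20 of 35 between the TIL groups, 24 of 35 in Tim-3- against naive and 25 of 35 in Tim-3+ against naive. For genes called, it was 2 of 2, 10 of 13 and 12 of 13. Those of called genes that went the other way in Tim-3- against naive belonged to Ddx21 (0.02), Heatr1 (0.03) and Noc2l. In Tim-3+ against naive it was that of Nop16. Both other probe sets of Polr1a above the dim level were lower than naive (-0.48 and -0.27 in Tim-3+, -0.41 and -0.60 in Tim-3-), and those of Tsr1, Fbl and Mybbp1a had the same sign as the probe set used. The second probe set of Nhp2 differed by 0.81 for Tim-3+ against Tim-3-, and that of Polr1c by -0.31. The second probe set of Noc2l went against the first, with 0.89 in Tim-3- against naive, as did those of Nolc1 (-1.12 in Tim-3+ and -1.38 in Tim-3- against naive) and Nop16 (-0.45 in Tim-3+ against naive). For Wdr12 the second probe set differed by -0.37 for Tim-3+ against Tim-3-, where the probe set used gave 0.36, and by -1.68 in Tim-3+ and -1.31 in Tim-3- against naive. Probe sets can read different transcript ends, and names ending in _s_at or _x_at mark probes that may also bind related sequences. Dkc1, Fbl, Gar1, Nhp2, Nop56, Polr1c and Tsr1 were read by the first kind and Noc4l and Rrs1 by the second. Utp20, Rrp9, Nop2, Polr1b, Nop58 and Rrp12 had 1 probe set each.

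**Figure D5:**
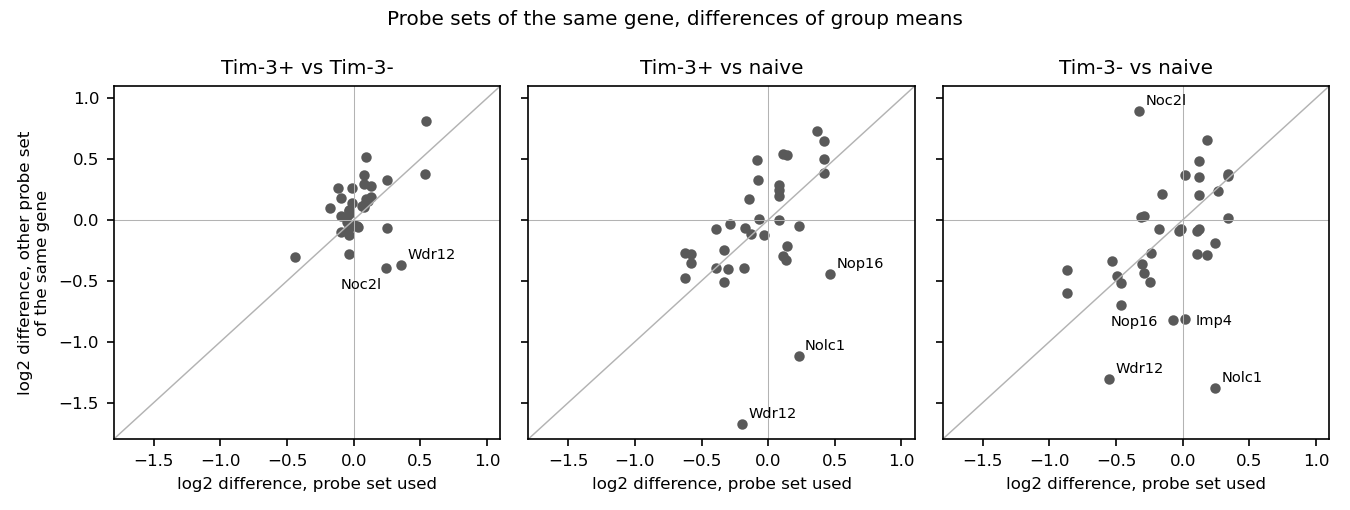
Difference of group means (log2) by the other probe set of a gene (vertical) against the probe set used (horizontal), 35 points per comparison, with the line of equality; genes with the widest gaps are named. Points of Wdr12, Nolc1, Noc2l, Nop16 and Imp4 lie far from the line in at least 1 comparison.

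Of the 8 genes with CACGTG in the promoter window, Utp20, Tsr1, Mybbp1a and Nop2 were called lower against naive in each TIL group, and Imp4, Ltv1, Pes1 and Wdr43 in neither. Of the 34 genes with a window, 11 were called lower in Tim-3- against naive, and 4 of these 11 held CACGTG. In Tim-3+ against naive it was 4 of 8. Over all genes, 18.3% were called lower in Tim-3- and 21.4% in Tim-3+ against naive. Whether genes with these letters differ from the others was not tested. Myc had log2 intensities of 10.21, 10.62, 9.02 and 9.23 on the Tim-3+ arrays, 10.34, 9.24 and 9.40 on the Tim-3- arrays, and 11.70, 11.63, 11.69, 11.69 and 11.56 on the naive arrays. It fell by 1.88 ± 0.30 in Tim-3+ (adjusted p = 0.000128) and by 1.99 ± 0.32 in Tim-3- (adjusted p = 0.000233) against naive, and TIL arrays of set A were higher than those of set B. Between the TIL groups its change was 0.11 ± 0.34 (adjusted p = 0.901). Whether Myc levels relate to those of the 38 genes was not tested.

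Other genes of ribosome production were counted in the same way. Over all genes, 13.5% were called between the TIL groups, 34.4% in Tim-3- against naive and 41.5% in Tim-3+ against naive. Of the 121 other assembly factors and exosome subunits, these shares were 7.44%, 37.2% and 46.3%. Among 121 other assembly factors and exosome subunits, 8 were higher and 1 lower in Tim-3+ against Tim-3- (median log2 change 0.08), 16 higher and 29 lower in Tim-3- against naive (median -0.12), and 27 higher and 29 lower in Tim-3+ against naive (median -0.03). Krr1, of the small subunit processome, rose by 0.54 ± 0.10 in Tim-3+ against Tim-3- (adjusted p = 0.00261), a call lost within set B and with the most variable probe set. Ddx31, a helicase of 60S assembly, fell by 2.16 ± 0.16 in Tim-3+ and 2.20 ± 0.17 in Tim-3- against naive (adjusted p = 5.68e-08 and 2.27e-07), and Mphosph6, an exosome cofactor, rose by 2.13 ± 0.14 and 1.78 ± 0.15 (adjusted p = 2.26e-08 and 7.04e-07). In the small subunit processome Pwp2 fell by 0.99 ± 0.11 in Tim-3+ and 1.10 ± 0.12 in Tim-3- (adjusted p = 4.43e-06 and 5.96e-06), and Wdr46 by 1.10 ± 0.15 and 1.17 ± 0.16 (adjusted p = 3.58e-05 and 6.61e-05). Of 10 other RNA polymerase I factors, 1 was higher and 4 lower in Tim-3+ against naive and 1 higher and 3 lower in Tim-3-, and none was called between the TIL groups. Tcof1 (treacle), which brings the polymerase to rRNA genes, fell by 0.74 ± 0.09 in Tim-3+ and 0.59 ± 0.10 in Tim-3- (adjusted p = 1.13e-05 and 0.000276), and Ttf1, which ends its transcription, by 1.11 ± 0.18 and 0.93 ± 0.20 (adjusted p = 0.000186 and 0.00209). Taf1d, a part of its initiation factor, rose by 0.58 ± 0.13 and 0.61 ± 0.15 (adjusted p = 0.00274 and 0.00490).

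The 42 ribosomal proteins measured gave 0 calls between the TIL groups by limma, with 0 at an unadjusted p below 0.05. Against naive, 1 was higher and 7 lower in Tim-3+ (median -0.12), and 1 higher and 3 lower in Tim-3- (median -0.09). Rpl8, a large subunit protein, fell by 0.38 ± 0.09 in Tim-3+ against naive (adjusted p = 0.00315). The 19 mitosis genes measured were all called higher in Tim-3+ against Tim-3- (median log2 change 1.21), in Tim-3- against naive (median 3.21) and in Tim-3+ against naive (median 4.74). Ccna2 (cyclin A) rose by 5.32 ± 0.16 in Tim-3+ (adjusted p = 7.38e-12) and by 4.06 ± 0.17 in Tim-3- against naive (adjusted p = 6.66e-10), and by 1.26 ± 0.18 in Tim-3+ against Tim-3- (adjusted p = 0.000341).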

How the data were processed

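Labels place 12 arrays in 3 groups, and the replicate numbers are those of the labels. The authors deposited 1 linear intensity for each probe set. They used RMA and the affy package, per the submitters' processing notes. Versions, the return to a linear scale and joint or separate normalization were not given in the sources used here. Each intensity was put on a log2 scale.

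Of 45101 probe sets, 64 are controls. The array's annotation, which can be old, names 1 gene for 34945, several for 932 and none for 9160. The probe set with the highest mean stood for a gene, giving 18193 genes with no filter. All samples entered 1 limma fit (version 3.58.1, R 4.3.3) of group means with default empirical Bayes moderation, two-sided tests and Benjamini-Hochberg adjustment (threshold 0.05). Changes are given ± SE. The fit was tested on simulated data. Tables and figures used Python 3.11.15, numpy 2.4.6, pandas 2.3.3 and matplotlib 3.10.9. Values come without detection calls, and 5.71 (percentile 40 of gene means) served as the dim level.

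Named were every measured member, up to 3 genes per direction of each other pathway list with the smallest adjusted p, Myc, the sort markers and 2 genes of each marker list, though not all appear. Members and lists were chosen with earlier results of these data known. Alternatives were the value per gene, normalization, centring, the log scale, a dim filter, array weights, moderation, the groups in the fit, the replicate block, the array sets and leaving out each array. Deviations from group means correlated between 0.13 and 0.41 for 8 of 10 pairs of arrays with the same replicate number and at -0.15 and -0.13 for the other 2, so the numbers were not taken to pair the arrays.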

Additional observations from a re-analysis of the deposited data

Results flagged for a closer look

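In 4 of 76 groups of values (38 genes in the Tim-3+ and naive arrays; the 3 Tim-3- arrays are too few to ask this of) 1 array stood apart from the rest by Dixon's ratio of gap to range at 95%. Chance gives about 1 in 20 such groups. Polr1b on Tim-3+ replicate 2 was low at log2 6.52, with the nearest Tim-3+ array at 6.90 (ratio 0.938). Noc4l on Tim-3+ replicate 2 was low at 11.09, nearest 11.19 (ratio 0.897). Ddx21 on Tim-3+ replicate 4 was low at 11.02, nearest 11.06 (ratio 0.876). Rrp9 on naive replicate 3 was high at 7.95, nearest 7.59 (ratio 0.756).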

How the results depend on the processing

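Between Tim-3+ and Tim-3- TIL the 2 members called became 4 with the dim filter, 1 in a fit of only these groups, 4 with set as a block, 1 in set A alone and 0 in set B alone, and lay between 0 and 3 without each array in turn. Their median change was 0.126 within set A and between -0.027 and 0.086 without 1 array. All genes called were 2463, 1590 within set A and between 1666 and 2447 without 1 array. In Tim-3- against naive the 13 members called became 8 in a fit of only these groups and 5 within set A, and lay between 7 and 13 without 1 array. The median was -0.273 with the most variable probe set of each gene and between -0.232 and -0.078 without 1 array, and all genes called lay between 5136 and 6235. In Tim-3+ against naive the 14 members called became 8 within set A and lay between 11 and 15 without 1 array. The median was -0.290 with the most variable probe set, -0.029 within set A and between -0.186 and -0.096 without 1 array, and all genes called lay between 6858 and 7852. Quantile normalization moved the split of these calls to 2 higher and 12 lower, and median centring to 3 and 12. With the replicate block, 3, 11 and 14 members were called between the TIL groups, in Tim-3- against naive and in Tim-3+ against naive. Of all genes, 2750, 6415 and 7681 were called there. A change that passed before or after turned direction only with another probe set: Nolc1 to -0.44 (mean of probe sets) and -1.38 (most variable) in Tim-3- and to -0.31 and -1.12 in Tim-3+ against naive, Noc2l to 0.28 and 0.89 and Imp4 to -0.81 (most variable) in Tim-3- against naive, and Nop16 to -0.45 and Bop1 to -0.52 (most variable) in Tim-3+ against naive. The cause was not tested. Set A holds 1 Tim-3- array, and fewer arrays in a fit leave less power. Without detection calls, the signal over background is unknown.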

Other observations

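Regulators of growth gave changes in both directions. Beside the counts of this section, 13.5% of all genes were called between the TIL groups, 34.4% in Tim-3- against naive and 41.5% in Tim-3+ against naive. Of 20 genes of the MYC network and of mTORC1 regulation, 2 were higher and 2 lower in Tim-3+ against Tim-3-, 6 higher and 6 lower in Tim-3- against naive, and 5 higher and 9 lower in Tim-3+ against naive. Mxd1, which competes with MYC for its partner MAX, rose by 2.38 ± 0.17 in Tim-3+ (adjusted p = 3.52e-08) and by 1.92 ± 0.18 in Tim-3- (adjusted p = 1.51e-06) against naive, and Mxi1, of the same family, by 2.07 ± 0.25 and 1.73 ± 0.27 (adjusted p = 1.03e-05 and 0.000179). Mga, which also pairs with MAX, fell by 1.14 ± 0.11 and 0.84 ± 0.12 (adjusted p = 8.82e-07 and 5.77e-05). Sesn1, which restrains mTORC1 when amino acids are scarce, fell by 2.68 ± 0.12 in Tim-3+ and by 2.02 ± 0.13 in Tim-3- against naive (adjusted p = 2.54e-10 and 2.58e-08). Sesn3, of the same family, fell by 1.78 ± 0.13 in Tim-3+ against Tim-3- (adjusted p = 5.47e-07).

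Of 6 genes of nucleolar stress and the p53 response, 3 were higher and none lower in Tim-3+ against Tim-3-. Cdkn1a (p21), which stops the cell cycle, rose by 1.71 ± 0.16 in Tim-3+ against Tim-3- (adjusted p = 7.32e-06), with arrays at 9.22, 9.19, 8.74 and 9.15 in Tim-3+ and 7.16, 7.50 and 7.43 in Tim-3- cells. Ccng1, a p53 target, rose by 0.63 ± 0.11 (adjusted p = 0.00166). Cdkn2a rose by 1.85 ± 0.19 (adjusted p = 1.56e-05), with its Tim-3- mean below the dim level. Of 14 genes of nucleotide synthesis, which supplies rRNA with its bases, 5 were higher and 5 lower in Tim-3+ against naive, and 4 higher and 5 lower in Tim-3- against naive. Gmps, which makes GMP, rose by 1.15 ± 0.09 in Tim-3+ and 0.73 ± 0.10 in Tim-3- against naive (adjusted p = 1.22e-07 and 4.28e-05), while Atic, which makes IMP, fell by 0.94 ± 0.12 and 1.21 ± 0.13 (adjusted p = 1.97e-05 and 6.22e-06).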
